A study of Saccharomyces cerevisiae with 9 samples.

Results

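The small subunit processome is the nucleolar particle that forms on the 5′ part of the ribosomal RNA precursor and makes the small ribosomal subunit. The small nucleolar ribonucleoproteins (snoRNPs) guide the chemical modification and some of the cleavages of the same RNA. A list of 44 genes of both kinds was examined on arrays that measured 5311 named yeast genes. Of these members, 43 were found by symbol in the annotation of the probes, and DBP4 was found under HCA4, for which DBP4 is a synonym in the gene table. Each member had 1 probe set, and none of those probe sets has the kind of name given to probes that match several sequences.

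The arrays held total RNA of cultures of the SK1 strain, which sporulates readily. Sporulation medium (SPO) contained 1% potassium acetate. There were 2 arrays of ime4-/- cells (ime4) and 3 of wild-type cells (WT), each after 4 h in SPO, and in rich medium (YPD) there were 2 of ime4 cells and 2 of WT cells. All cultures had been grown vegetatively in YPD. IME4 encodes the RNA N6-adenosine methyltransferase of yeast, and the labels name the replicates biological. Ploidy and the extent of the deletion are not given in the sources used here.

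Levels are log2 of the deposited intensity, so a difference of 1 is a 2-fold change. Background was the 95th percentile on each array over named probe sets without a match in the gene table, taken as those for another species. It lay between 3.02 and 3.27. All 44 members lay above background on every array, and the lowest member value was 4.11. The IME4 probe set read 2.54 and 2.14 in ime4 in SPO, 7.14, 7.13 and 7.10 in WT in SPO, 2.29 and 2.43 in ime4 in YPD, and 5.35 and 5.35 in WT in YPD. The a1 transcript (HMRA1 probe set) read 2.72 and 3.28 in ime4 and averaged 8.79 in WT in SPO, and the alpha1 transcript (HMLALPHA1 probe set) 7.71 in ime4 and 3.98 in WT. In YPD the a1 means were 1.78 in ime4 and 8.04 in WT, and the alpha1 means 8.91 in ime4 and 4.20 in WT. Of the marker lists, all 7 a cell genes were lower and all 6 alpha cell genes higher in ime4 in both media. The IME4 genotype and these mating-type patterns cannot be told apart in any comparison of ime4 with WT.

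In growing yeast the genes of ribosome assembly are actively transcribed, and they are known to be turned down together when nutrients run out. Pre-ribosomal RNA is first bound by the UtpA complex. The UtpB complex, the U3 snoRNP, the Mpp10 complex and many single factors then join, and helicases and a GTPase later drive the particle apart.

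All 44 members fell in WT cells on transfer to SPO. In ime4 cells most fell less, some did not pass the test, and 7 rose. As a result, 42 members stood higher in ime4 than in WT in SPO, although the genotypes differed little in YPD. The median log2 change from YPD to SPO over the members was -1.36 in ime4 (range -3.18 to 0.91) and -2.45 in WT (range -4.95 to -0.23), while the median over all tested probe sets was 0.04 in ime4 and 0.05 in WT. The arrays compare RNA of whole cultures, in which fewer cells of a type and less RNA per cell cannot be told apart, and they show levels relative to the other transcripts only.

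The calls come from limma fitted to all 9 arrays, with Benjamini-Hochberg adjustment over the 5359 tested probe sets, and a gene is said to have risen or fallen where its adjusted p was under 0.05. In ime4, 33 of 44 members fell and 7 rose from YPD to SPO, against 42.0% of all tested probe sets that fell and 44.0% that rose. In WT, 44 of 44 fell and none rose, against 43.1% and 46.9% of all tested probe sets. The fall was at least 2-fold for 27 members in ime4 (16.2% of all tested probe sets) and for 39 in WT (21.1%). In SPO, 42 members were higher in ime4 than in WT and none was lower, against 34.1% and 39.4% of all tested probe sets, and for 31 members the difference was at least 2-fold (5.71%). In YPD 1 member was higher in ime4 and 11 were lower (21.3% and 18.7% of all tested probe sets). The response to SPO differed between ime4 and WT (the genotype by medium interaction) for 42 members, all with a positive difference, against 29.5% of all tested probe sets with a positive and 34.6% with a negative one. The comparisons share arrays, so these counts are not independent of each other.

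**Figure D1:**
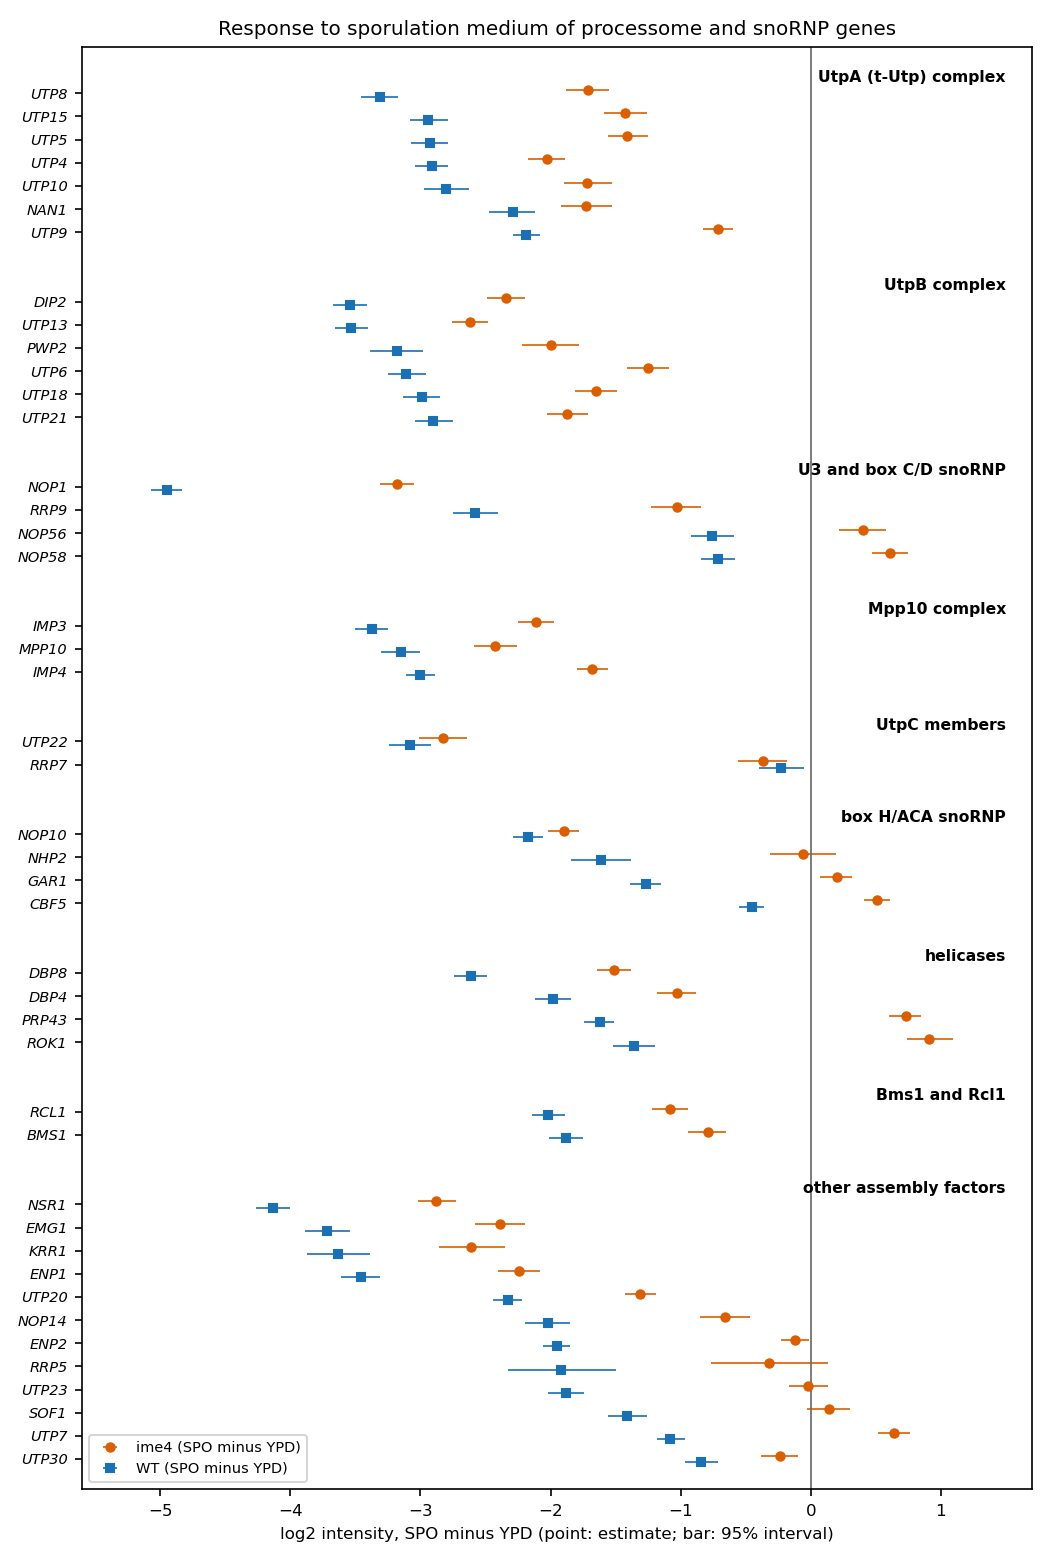
Change in log2 intensity from YPD to SPO for each of the 44 members, by subcomplex, with orange circles for ime4 and blue squares for WT. Bars are 95% intervals from the limma fit; WT points lie at or below -0.23 throughout, while the ime4 points reach from -3.18 to 0.91 and lie right of the WT points except for RRP7.

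The UtpA complex, also called t-Utp for its link to ribosomal DNA transcription, fell in both genotypes, and each of its 7 genes stood higher in ime4 than in WT in SPO. The median response was -1.71 in ime4 and -2.91 in WT. UTP8 had the largest WT fall of the group. It read 6.19 and 6.06 in ime4 in SPO, 5.04, 5.12 and 5.24 in WT in SPO, 7.87 and 7.81 in ime4 in YPD, and 8.46 and 8.43 in WT in YPD. The 4 groups did not overlap, and in YPD the ime4 minus WT difference of UTP8 was -0.61 (SE 0.0721, adjusted p = 0.000224), the largest YPD difference of any member. UTP9 had the smallest WT fall of the group. Its values were 7.92 and 7.88 in ime4 in SPO, 6.68, 6.79 and 6.75 in WT in SPO, 8.61 and 8.61 in ime4 in YPD, and 8.94 and 8.92 in WT in YPD. The fall of UTP9 was 1.64-fold in ime4 and 4.55-fold in WT, and the difference between the responses was 1.47 (SE 0.0691, adjusted p = 4.90e-07). UTP5 fell 2.65-fold in ime4 and 7.61-fold in WT, and UTP15 fell 2.69-fold in ime4 and 7.65-fold in WT. NAN1, whose protein is also known as Utp17, had the smallest difference between the responses in this complex, 0.56 (SE 0.115, adjusted p = 0.00210). UTP4 and UTP10 had differences of 0.88 and 1.08.

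The UtpB complex, a scaffold made mostly of proteins with WD-repeat propellers, fell in all 6 genes in both genotypes. Its median response was -1.93 in ime4 and -3.14 in WT. DIP2, which encodes Utp12, read 6.35 and 6.50 in ime4 in SPO, 5.47, 5.48 and 5.38 in WT in SPO, 8.80 and 8.73 in ime4 in YPD, and a mean of 8.98 in WT in YPD. It fell 5.08-fold in ime4 and 11.6-fold in WT. UTP21 had the smallest WT fall of this complex, with 5.38 and 5.41 in ime4 in SPO, 4.65, 4.45 and 4.50 in WT in SPO, 7.26 and 7.27 in ime4 in YPD, and 7.49 and 7.37 in WT in YPD. In SPO its ime4 arrays lay above all WT arrays, by 0.86 (SE 0.0649, adjusted p = 2.10e-06). UTP6, a subunit built of HAT repeats, stood out within UtpB by its difference in SPO. It was 3.63-fold higher in ime4 than in WT in SPO (adjusted p = 2.75e-08), while its YPD difference was 0.00 (95% interval -0.16 to 0.16). The other 5 genes were 1.82-fold (UTP21) to 2.43-fold (PWP2) higher in ime4 in SPO. UTP13 fell 6.14-fold in ime4 and 11.5-fold in WT, and UTP18 fell 3.14-fold in ime4 and 7.95-fold in WT.

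The proteins of the U3 and box C/D snoRNPs split in their response. NOP1 encodes fibrillarin, the methyltransferase of the box C/D particles, and NOP56 and NOP58 encode the core proteins that hold it. RRP9 encodes a protein specific to U3. NOP1 read 7.89 and 8.03 in ime4 in SPO, 6.55, 6.54 and 6.49 in WT in SPO, 11.17 and 11.11 in ime4 in YPD, and 11.46 and 11.49 in WT in YPD. Its WT change of -4.95 (SE 0.0528) had rank 1 among the falls of all tested probe sets, and its ime4 change of -3.18 (SE 0.0579) had rank 6. NOP58 read 12.40 and 12.46 in ime4 in SPO, 11.22, 11.35 and 11.38 in WT in SPO, 11.83 and 11.82 in ime4 in YPD, and 12.00 and 12.07 in WT in YPD. The SPO arrays of NOP58 thus lay above the YPD arrays in ime4 and below them in WT, with changes of 0.61 (SE 0.0624, adjusted p = 8.38e-06) in ime4 and -0.71 (SE 0.0570, adjusted p = 9.95e-07) in WT. NOP56 behaved in the same way, with 11.58 and 11.45 in ime4 in SPO, 10.34, 10.50 and 10.46 in WT in SPO, 11.17 and 11.07 in ime4 in YPD, and 11.11 and 11.27 in WT in YPD. Its change was 0.40 in ime4 (adjusted p = 0.00100) and -0.76 in WT (adjusted p = 4.14e-06). RRP9 fell 2.05-fold in ime4 and 5.97-fold in WT. In SPO the ime4 level exceeded the WT level in all 4 genes, by 1.43 for NOP1, 1.08 for NOP56, 1.11 for NOP58 and 1.14 for RRP9, although the changes from YPD ranged from -3.18 to 0.61 in ime4 and from -4.95 to -0.71 in WT.

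The box H/ACA snoRNPs, which carry the pseudouridine synthase encoded by CBF5, showed the same kind of split. CBF5 read 12.41 and 12.44 in ime4 in SPO, 11.34, 11.32 and 11.33 in WT in SPO, 11.92 and 11.90 in ime4 in YPD, and 11.79 and 11.78 in WT in YPD. It rose by 0.51 in ime4 (SE 0.0443, adjusted p = 2.21e-06), and in WT it fell by 0.45 (SE 0.0404, adjusted p = 2.28e-06). GAR1, a small protein rich in glycine and arginine, read 12.21 and 12.23 in ime4 in SPO, 10.86, 10.80 and 10.74 in WT in SPO, 12.04 and 12.01 in ime4 in YPD, and 12.12 and 12.02 in WT in YPD. It rose 1.15-fold in ime4 (adjusted p = 0.00844), against a 2.41-fold fall in WT. NHP2, whose protein binds the guide RNA, read 11.81 and 11.88 in ime4 in SPO, 10.30, 10.65 and 10.68 in WT in SPO, 11.87 and 11.94 in ime4 in YPD, and 12.16 and 12.15 in WT in YPD. Its ime4 change of -0.06 did not pass the test (95% interval -0.31 to 0.19), while in WT it fell 3.06-fold. NOP10, the smallest core protein, read 9.99 and 10.01 in ime4 in SPO, 9.63, 9.63 and 9.52 in WT in SPO, 11.87 and 11.93 in ime4 in YPD, and 11.77 and 11.76 in WT in YPD. It fell 3.74-fold in ime4 and 4.51-fold in WT, so that the SPO difference between the genotypes was 1.32-fold (adjusted p = 6.08e-05). The difference between the responses was 0.27 for NOP10 (SE 0.0740, adjusted p = 0.00965), 0.97 for CBF5, 1.47 for GAR1 and 1.55 for NHP2.

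**Figure D2:**
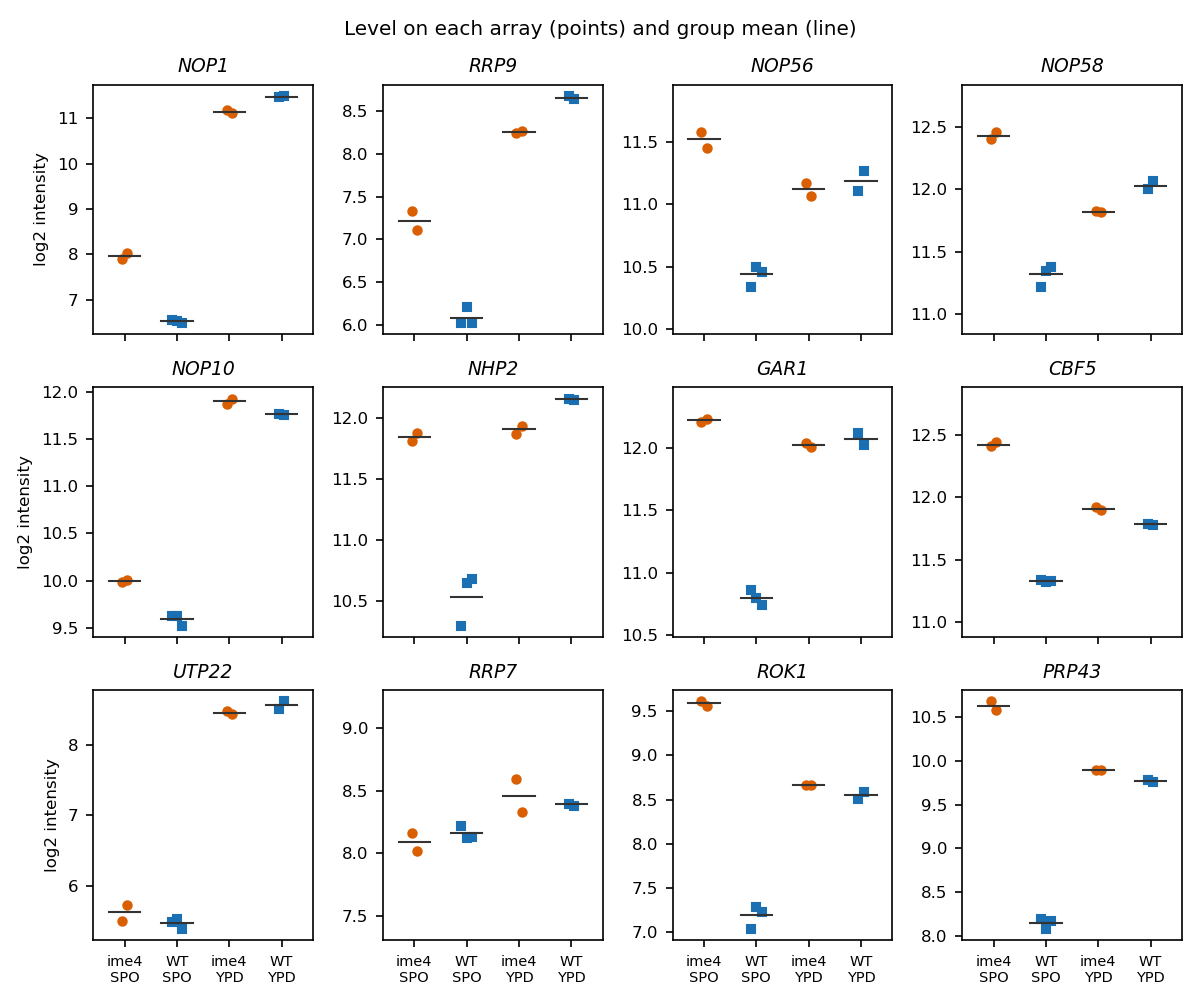
Level on each array for 12 members, as log2 intensity, with orange circles for ime4, blue squares for WT and a line at each group mean; the panels have different vertical ranges. The panels hold the genes of the box C/D, box H/ACA and UtpC groups and, of the helicases, ROK1 and PRP43. In NOP56, NOP58, GAR1, CBF5, ROK1 and PRP43 the ime4 SPO arrays lie above the ime4 YPD arrays. In WT the SPO arrays lie below the YPD arrays in all 12 panels. The shares of all tested probe sets with such positions were not counted.

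The 4 helicases of the list included the members with the largest differences between the genotypes. PRP43 encodes a DEAH-box helicase that acts in the assembly of both ribosomal subunits and in the release of the spliceosome, and ROK1, DBP4 and DBP8 encode DEAD-box helicases. PRP43 read 10.68 and 10.58 in ime4 in SPO, 8.19, 8.08 and 8.17 in WT in SPO, 9.90 and 9.90 in ime4 in YPD, and 9.78 and 9.76 in WT in YPD. It rose 1.65-fold in ime4 and fell 3.08-fold in WT, and in SPO its level was 5.59-fold higher in ime4 (95% interval of the log2 difference 2.37 to 2.60, adjusted p = 2.90e-09). ROK1 read 9.61 and 9.56 in ime4 in SPO, 7.04, 7.29 and 7.23 in WT in SPO, 8.67 and 8.67 in ime4 in YPD, and 8.51 and 8.58 in WT in YPD. It rose 1.88-fold in ime4 and fell 2.57-fold in WT, and in SPO it was 5.28-fold higher in ime4 (adjusted p = 1.17e-08). The differences of PRP43 and ROK1 had ranks 7 and 9 from the top among the 5359 tested probe sets, both for ime4 against WT in SPO and for the difference between the responses. DBP8 read 6.05 and 5.91 in ime4 in SPO, 4.71, 4.69 and 4.62 in WT in SPO, 7.47 and 7.51 in ime4 in YPD, and 7.29 and 7.28 in WT in YPD. Unlike PRP43 and ROK1, it fell in both genotypes, 2.85-fold in ime4 and 6.12-fold in WT. DBP4 fell 2.04-fold in ime4 and 3.94-fold in WT.

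The Mpp10 complex, which helps U3 pair with the ribosomal RNA precursor, fell in all 3 genes. IMP3 read 7.39 and 7.33 in ime4 in SPO, 6.03, 5.98 and 6.15 in WT in SPO, 9.48 and 9.46 in ime4 in YPD, and 9.43 and 9.42 in WT in YPD. Its fall was 4.32-fold in ime4 and 10.3-fold in WT. IMP4 read 6.92 and 6.86 in ime4 in SPO, 5.88, 5.89 and 5.82 in WT in SPO, 8.53 and 8.61 in ime4 in YPD, and 8.87 and 8.84 in WT in YPD. Its fall was 3.20-fold in ime4 and 7.98-fold in WT. MPP10 had the smallest difference between the responses here, 0.72 (SE 0.0994, adjusted p = 0.000183).

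The 2 members that did not pass the test between the genotypes in SPO were UTP22 and RRP7, whose proteins belong to the UtpC complex together with casein kinase 2. UTP22 read 5.51 and 5.74 in ime4 in SPO, 5.50, 5.53 and 5.40 in WT in SPO, 8.48 and 8.43 in ime4 in YPD, and 8.50 and 8.61 in WT in YPD. The SPO arrays of the genotypes overlapped, and the fall was 7.09-fold in ime4 and 8.46-fold in WT. The difference between the responses of UTP22 was 0.25 (95% interval 0.01 to 0.50, adjusted p = 0.0650). It passed with each array centred on its median (0.32, adjusted p = 0.0274), without ime4 replicate 1 in SPO (0.37, adjusted p = 0.0116), with an offset of 16 (0.21, adjusted p = 0.0460) and without the dimmest 25% of probe sets (0.25, adjusted p = 0.0366). RRP7 had the smallest WT change of all members, with 8.16 and 8.02 in ime4 in SPO, 8.22, 8.12 and 8.13 in WT in SPO, 8.59 and 8.33 in ime4 in YPD, and 8.39 and 8.38 in WT in YPD. It fell 1.29-fold in ime4 (adjusted p = 0.00248) and 1.17-fold in WT (adjusted p = 0.0182), and the WT call was lost without WT replicate 1 in YPD (adjusted p = 0.0704) and without WT replicate 2 in YPD (adjusted p = 0.0573). Its difference between the responses was -0.14 (95% interval -0.40 to 0.12), and it passed without ime4 replicate 2 in YPD (-0.27, adjusted p = 0.0392). In SPO the difference between ime4 and WT was 0.15 for UTP22 (95% interval -0.02 to 0.31) and -0.06 for RRP7 (95% interval -0.24 to 0.11). That of UTP22 passed with centring (0.19, adjusted p = 0.0395) and without ime4 replicate 1 in SPO (0.26, adjusted p = 0.0129). The genes of the casein kinase subunits were singled out after their values were seen. Their differences between the responses of ime4 and WT (the interaction) were 0.52 for CKA1, -0.13 for CKA2, -0.21 for CKB1 and 0.39 for CKB2. Those of CKA1 (adjusted p = 3.02e-04), CKB1 (adjusted p = 0.0216) and CKB2 (adjusted p = 0.00103) passed the test. That of CKA2 did not (adjusted p = 0.313).

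BMS1, the GTPase gene of the processome, and RCL1, whose product binds Bms1, fell in both genotypes. BMS1 read 8.83 and 8.70 in ime4 in SPO, 7.53, 7.59 and 7.62 in WT in SPO, 9.62 and 9.51 in ime4 in YPD, and 9.47 and 9.45 in WT in YPD. RCL1 read 7.02 and 7.07 in ime4 in SPO, 6.27, 6.34 and 6.40 in WT in SPO, 8.17 and 8.08 in ime4 in YPD, and 8.31 and 8.40 in WT in YPD. The fall in ime4 was 1.73-fold for BMS1 and 2.11-fold for RCL1, and that in WT was 3.67-fold for BMS1 and 4.05-fold for RCL1.

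The other 12 factors all fell in WT. NSR1, the nucleolin-like gene, read 8.12 and 8.06 in ime4 in SPO, 6.72, 6.60 and 6.76 in WT in SPO, 10.96 and 10.97 in ime4 in YPD, and 10.87 and 10.78 in WT in YPD, and its WT change of -4.13 had rank 4 among the falls of all tested probe sets. UTP30 lay at the other end, with 7.15 and 7.26 in ime4 in SPO, 6.89, 6.82 and 6.77 in WT in SPO, 7.43 and 7.46 in ime4 in YPD, and 7.71 and 7.62 in WT in YPD. It fell 1.18-fold in ime4 and 1.79-fold in WT. EMG1, which encodes a methyltransferase of the small subunit RNA, fell 5.25-fold in ime4 and 13.2-fold in WT. KRR1 fell 6.09-fold in ime4 and 12.4-fold in WT, ENP1 4.73-fold and 11.0-fold, UTP20 2.48-fold and 5.03-fold, and NOP14 1.58-fold and 4.07-fold, each with the ime4 value before the WT value.

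In UTP23, ENP2, SOF1 and RRP5 the mean ime4 change was between -0.32 and 0.14. UTP23, whose protein binds the H/ACA RNA snR30, had the third largest difference between the responses among the members, 1.86 (SE 0.0907, adjusted p = 5.09e-07). It read 9.16 and 9.31 in ime4 in SPO, 7.24, 7.38 and 7.29 in WT in SPO, 9.27 and 9.25 in ime4 in YPD, and 9.16 and 9.22 in WT in YPD. The WT arrays in SPO lay below all others, which ranged from 9.16 to 9.31. Its change was -0.02 in ime4 (95% interval -0.17 to 0.13) and -1.88 in WT. ENP2, a propeller protein gene, changed by -0.12 in ime4 (adjusted p = 0.0467) and by -1.95 in WT. The ime4 call of ENP2 was lost in 12 alternatives (adjusted p from 0.0550 to 0.253). SOF1, another propeller protein gene, changed by 0.14 in ime4 (adjusted p = 0.113) and by -1.41 in WT, and its ime4 change passed without ime4 replicate 2 in SPO (0.24, adjusted p = 0.0170). RRP5, which is needed for both subunits, had the widest spread between replicates of any member, with 10.38 and 9.72 in ime4 in SPO, 8.05, 8.41 and 8.54 in WT in SPO, 10.38 and 10.36 in ime4 in YPD, and 10.25 and 10.25 in WT in YPD. Its ime4 change of -0.32 did not pass (SE 0.201, adjusted p = 0.159), but it was -0.65 without ime4 replicate 1 in SPO (adjusted p = 0.00676) and 0.01 without ime4 replicate 2 (adjusted p = 0.964). The SPO difference of RRP5 between ime4 and WT was 1.72 (SE 0.183, adjusted p = 2.30e-05). UTP7, the last of the rising genes, read 9.41 and 9.40 in ime4 in SPO, 7.63, 7.58 and 7.58 in WT in SPO, 8.81 and 8.71 in ime4 in YPD, and 8.65 and 8.70 in WT in YPD. It rose by 0.64 in ime4 (SE 0.0519, adjusted p = 1.39e-06), and in WT it fell by 1.08 (SE 0.0474, adjusted p = 8.87e-09).

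The 7 members that rose in ime4 and fell in WT were therefore NOP56, NOP58, CBF5, GAR1, ROK1, PRP43 and UTP7, against 2.54% of all tested probe sets (136 of 5359). Of the others, 33 fell in both genotypes and 4 fell in WT without passing the test in ime4. The members shown array by array beyond the ends of each subcomplex (NOP56, GAR1, NHP2, RRP5 and UTP7) were chosen after their values were seen. In 34 of 44 members the mean ime4 level in SPO lay between the mean WT levels in SPO and in YPD, in 9 it lay above the WT mean in YPD, and in RRP7 it lay below the WT mean in SPO. Shares over all tested probe sets were not counted for these positions, nor for falls in both genotypes or in WT only. Those counts describe the members and do not set them apart from other genes.

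Across the 44 members the ime4 and WT responses, which share no arrays, correlated with a Pearson's r of 0.899 and a Spearman's rho of 0.910 over genes, given as a description since genes are not independent replicates and share the arrays within each genotype. Over all tested probe sets Pearson's r was 0.927. The ratio of the ime4 log2 response to the WT log2 response had a median of 0.527. The ratio was highest for RRP7 (1.61), and it was 0.92 for UTP22, 0.87 for NOP10, 0.77 for MPP10 and 0.64 for NOP1. It was below 0 for 8 members, SOF1 among them, and the share below 0 over all tested probe sets was not counted.

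**Figure D3:**
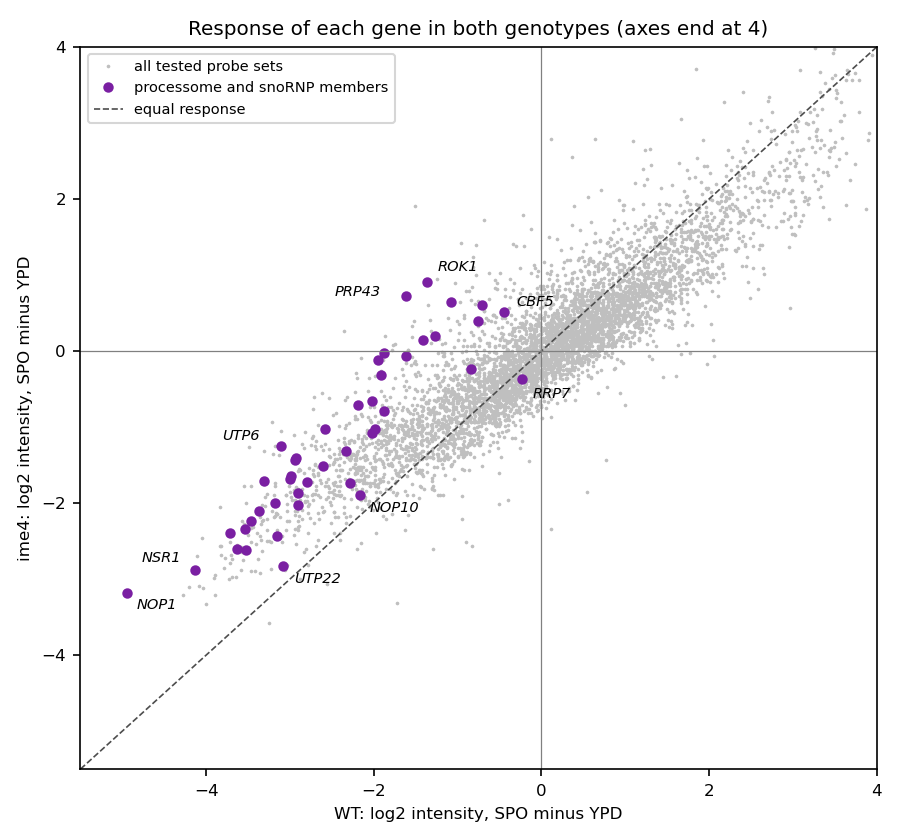
Response of each probe set from YPD to SPO, in log2 intensity, in WT (horizontal) and in ime4 (vertical), with all 5359 tested probe sets in grey and the 44 members in purple. Apart from RRP7 at -0.23 in WT and -0.37 in ime4, the members lie above the dashed line of equal response, NOP1 farthest to the left. In ime4 8 members lie above 0, PRP43 and ROK1 among them.

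In YPD the genotypes differed by at most 0.61 in any member. The 11 members lower in ime4 were UTP8, UTP9, UTP15, DIP2, NOP1, NOP58, RRP9, IMP4, RCL1, UTP20 and UTP30, and the 1 higher member was DBP8 (0.20, SE 0.0587, adjusted p = 0.0223). After UTP8 the next differences were -0.41 for RRP9 (adjusted p = 0.00525), -0.34 for NOP1 (adjusted p = 0.00173) and -0.32 for UTP9 (adjusted p = 0.00116). The count of lower members was 7 without WT replicate 1, 7 without WT replicate 2 and 5 without ime4 replicate 2, all in YPD, and the call of DBP8 was lost without any 1 of the 4 YPD arrays (adjusted p from 0.0573 to 0.104), with an intensity trend (adjusted p = 0.0536) and with all probe sets in the adjustment (adjusted p = 0.0782). The median over the members was -0.02, and that over all tested probe sets was 0.02.

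Related gene lists were described for comparison. The first held 42 genes listed as other small subunit processome factors. It goes beyond the processome itself, with RIO1, RIO2, NOB1 and RRP8 among its genes. Of the 42, 34 fell and 5 rose in ime4, and 41 fell and 1 rose in WT. In SPO 38 were higher and 2 lower in ime4 than in WT. The difference between the responses was positive for 37 and negative for 1, with a median of 0.91. The 4 of these with the smallest p were ECM16, SNU13, SLX9 and RRP12. ECM16, the gene of the DEAH-box helicase Dhr1, changed by 0.95 in ime4 and by -1.25 in WT. SNU13, the gene of the protein that first binds box C/D RNA, changed by -2.05 in ime4 and by -3.84 in WT. RRP12 changed by -0.62 in ime4 and by -2.54 in WT, and SLX9 by -1.36 in ime4 and by -3.20 in WT. Of 58 large subunit assembly factors, 57 fell and 1 rose in WT (median -2.47), and 48 fell and 8 rose in ime4 (median -1.41). In SPO 57 of them were higher and 1 lower in ime4 than in WT. All 53 small subunit ribosomal protein genes fell in WT (median -2.03) and in ime4 (median -1.20). In SPO 51 of these were higher and none lower in ime4. The difference between the responses was positive for 57 of the 58 large subunit factors (median 1.09). For the 53 ribosomal protein genes it was positive for 48 and negative for 1 (median 0.77). These stand beside 42 of 44 members (median 1.26) and -0.05 for the median of all tested probe sets. A rise in ime4 with a fall in WT was seen for 4 of the 42 genes of the first list (ECM16, NOP6, BUD22 and RIO1). It was seen for 7 of the 58 large subunit factors and none of the 53 ribosomal protein genes. Differences between these lists were not tested.

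**Figure D4:**
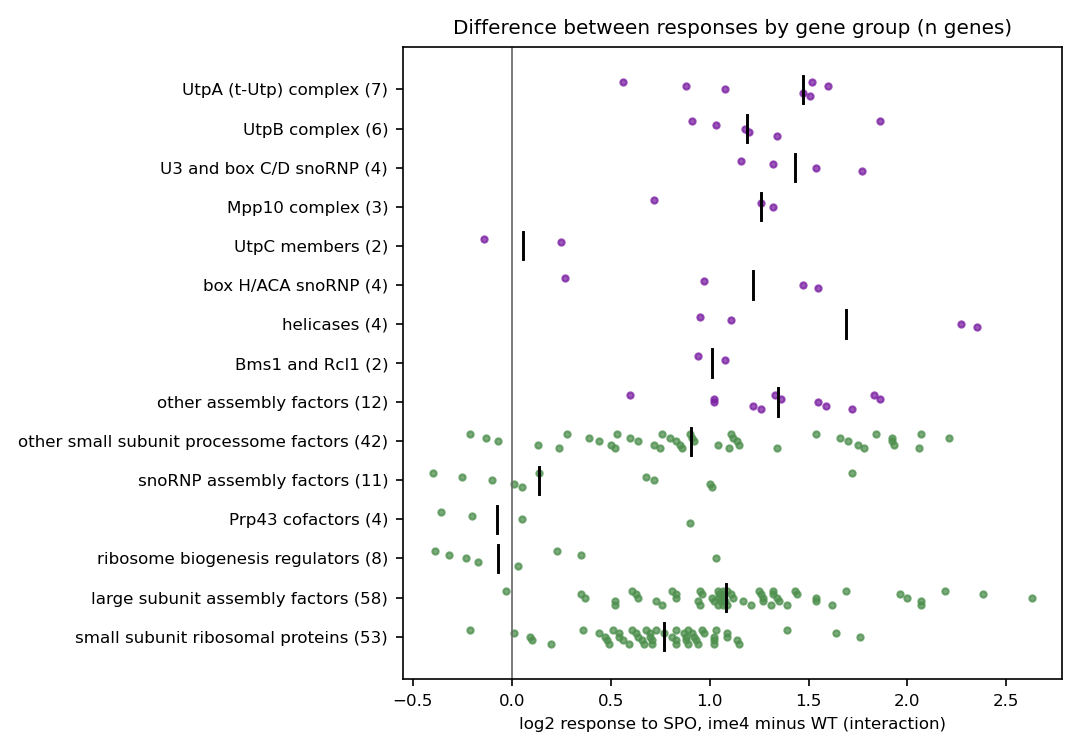
Difference between the responses to SPO, ime4 minus WT, in log2 intensity, for each gene (points) and its group's median (line), with the members' groups in purple and other lists in green. The 2 UtpC genes lie at -0.14 and 0.25, PRP43 and ROK1 at 2.35 and 2.27, and the ribosome biogenesis regulators have a median of -0.07.

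By gene order in the R64 assembly, no member overlaps a neighbouring protein-coding gene, and 4 members lie next to a gene of the assembly lists. The difference between the responses was 1.47 for UTP9 and 0.63 for its neighbour RIX1, 0.91 for UTP13 and 0.73 for RSA3, 1.47 for GAR1 and 1.39 for RPF1, and 1.11 for DBP8 and 0.83 for NMD3. PRP43 (2.35) lies between GPG1 (-0.49) and COQ8 (-0.06), and ROK1 (2.27) between NUP49 (0.15) and SPO74 (0.11). PRP43 and ROK1 were singled out after their values were seen. Over the measured neighbours of all members, the difference ranged from -1.15 (IDP2, next to CBF5) to 1.78 (CTF4, next to RRP9). Whether neighbours share the response of the members was not tested.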

How the data were processed

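Total RNA of 9 SK1 cultures was hybridized to Affymetrix yeast arrays from 600 ng RNA, per the labels. The authors deposited 1 table of 9676 probe sets as linear intensity values, made with RMA per the submitters' processing notes (software and settings not given in the sources used here). Arrays did not share 1 distribution as deposited, since quantile normalization over all 9676 probe sets changed values. The ime4 response of NHP2, for example, was -0.06 before it and 0.17 after it. The difference followed the medium. The arrays' median log2 intensity over tested probe sets ran from 7.73 to 7.77 in YPD and from 7.80 to 7.86 in SPO. Their highest value ran from 14.13 to 14.16 in YPD and from 13.76 to 13.82 in SPO. A change in total RNA per cell cannot be seen, since the same RNA amount was used for each array.

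The log2 of each intensity was taken with no offset. Probe sets took their names from the platform annotation, with symbols updated through the R64 gene table by Entrez identifier. Those of 5311 Saccharomyces cerevisiae genes, 5359 in number, were tested. Another 1413 had a gene name without a match in the R64 table and were taken as probe sets for another species. The remaining 2904 had no gene name. Group means were fitted to all 9 arrays by lmFit and eBayes of limma 3.58.1 (R 4.3.3), with 5 contrasts, two-sided tests and a threshold of 0.05 after Benjamini-Hochberg adjustment. The number of arrays (2 or 3 in each group) limits the precision, and the median residual SD was 0.0646. The procedure was tested on simulated data.

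Old names that are synonyms of a gene already on a list were counted once. Members and lists were chosen with earlier results of these data known. Values per array are given for the members with the largest and smallest WT change of each subcomplex of 3 or more genes, for all members of smaller groups, and for the 3 largest and 3 smallest interactions. Of the genes listed as other small subunit processome factors, the 4 with the smallest interaction p are named by rule. Further genes of the lists are named outside this rule. Replicate numbers did not pair the arrays: the correlations of same-numbered deviations lay between -0.0204 and 0.0314. Alternatives were quantile normalization, centring, a filter on dim probe sets, an offset, an intensity trend, the replicate number as a block, fits to the compared groups only, all probe sets in the adjustment, and leaving out each array. A planned count of promoter motifs was not run, since no promoter sequences were used here.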

Additional observations from a re-analysis of the deposited data

Results flagged for a closer look

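The response to SPO differed between ime4 and WT, by the interaction test in limma, for 42 of 44 members. The values below are the ime4 log2 response minus the WT log2 response, and all 42 are positive. In UtpA the difference was 0.88 for UTP4, 1.52 for UTP5, 1.60 for UTP8, 1.47 for UTP9, 1.08 for UTP10, 1.51 for UTP15 and 0.56 for NAN1. In UtpB it was 1.86 for UTP6, 0.91 for UTP13, 1.34 for UTP18, 1.03 for UTP21, 1.20 for DIP2 and 1.18 for PWP2.

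Among the snoRNP proteins it was 1.77 for NOP1, 1.16 for NOP56, 1.32 for NOP58 and 1.54 for RRP9, and 0.97 for CBF5, 1.47 for GAR1, 1.55 for NHP2 and 0.27 for NOP10. The Mpp10 complex had 0.72 for MPP10, 1.26 for IMP3 and 1.32 for IMP4. The helicases had 2.27 for ROK1, 0.95 for DBP4, 1.11 for DBP8 and 2.35 for PRP43. BMS1 had 1.08 and RCL1 0.94.

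Of the other factors UTP7 had 1.72, UTP20 1.02, UTP23 1.86, UTP30 0.60, NOP14 1.36 and SOF1 1.55. KRR1 had 1.02, ENP1 1.22, ENP2 1.83, NSR1 1.26, EMG1 1.33 and RRP5 1.59, the last with replicates in ime4 in SPO that lay 0.66 apart. With 2 or 3 arrays in each group, single arrays far from the others were not tested for.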

How the results depend on the processing

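Under up to 17 alternatives, the number of member values that kept direction and side of the threshold was 739 of 741 for the WT response, 723 of 741 for the ime4 response, 736 of 741 for ime4 against WT in SPO, 694 of 741 in YPD and 692 of 697 for the interaction. Leaving out each array in turn gave 43 to 44 falling members in WT, 32 to 33 falling and 7 to 8 rising in ime4, 42 to 43 higher in ime4 in SPO, 42 to 43 positive and 0 to 1 negative interactions, and in YPD 5 to 13 lower and 0 to 1 higher members. In YPD the higher members were also 2 with an offset of 16, 3 with an intensity trend (CBF5, NOP10 and PRP43, without DBP8) and 0 with all probe sets in the adjustment, where the lower members were 6 and the higher calls over all tested sets 754 (main count 1141). The members' median moved to -2.56 in WT with centring. Without the dimmest 25% of probe sets, which leaves out 7 members, it was -1.08 in ime4 and -2.19 in WT. With the offset it was -1.28 in ime4 and -2.18 in WT, 1.00 for ime4 against WT in SPO and 1.11 for the interaction. No sign turned in a value that passed the test in the fit reported. With quantile normalization these were the ime4 responses of NHP2 (0.17) and UTP23 (0.02), ime4 against WT in SPO for UTP22 (-0.03) and RRP7 (0.00), and in YPD UTP6 (-0.01, and -0.02 with centring). Leaving out single arrays turned the YPD differences of UTP6 (-0.04 to 0.04), NOP56 (-0.15 to 0.00), NOP14 (-0.10 to 0.02), KRR1 (-0.20 to 0.04) and RRP7 (-0.06 to 0.21), the ime4 responses of UTP23 (-0.10 to 0.05) and RRP5 (-0.65 to 0.01, with -0.65 past the test) and the SPO difference of RRP7 (-0.13 to 0.00). With the replicate number as a block (a replicate block that does not reflect a pairing in the data), all counts of members and of all tested sets stayed within 1.5 times, and among members the ime4 call of ENP2 was the only one to change (-0.12, adjusted p = 0.0804). For the other lists, 7 counts moved by more, each at most 3 with the block. No member had several probe sets, so the choice between them could not be varied. The cause of these movements was not tested.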

Other observations

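Of 11 genes of snoRNP assembly and nucleolar chaperoning, 10 fell and 1 rose in each genotype, and the difference between the responses was positive for 5 and negative for 2 (median 0.14). SRP40, which encodes a nucleolar chaperone, fell by 0.61 in ime4 and by 2.32 in WT, a difference of 1.72 (SE 0.0789, adjusted p = 4.76e-07). The H/ACA assembly genes NAF1 and SHQ1 had differences of 1.01 and 0.68. The 2 negative differences were -0.40 for TAH1 (adjusted p = 0.00504) and -0.25 for HIT1 (adjusted p = 0.0384). RVB1 and RVB2, which encode the paired ATPases of snoRNP assembly, fell by 1.44 and 0.77 in ime4 and by 1.58 and 0.82 in WT, with differences of 0.14 and 0.05 that did not pass the test. The genes named from this list were singled out after their values were seen.

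Of 4 cofactor genes of Prp43, PXR1, whose protein acts in the nucleolus, changed by 0.43 in ime4 and by -0.47 in WT (difference 0.90, adjusted p = 1.08e-05), in the same directions as PRP43. SQS1 had a difference of -0.36 (adjusted p = 0.000959), and CMG1 (-0.20) and SPP382 (0.05) did not pass. Among 8 regulators of ribosome biogenesis genes, the interaction was positive for 3 and negative for 1. TOD6, which encodes a repressor of these genes, fell by 1.54 in ime4 and by 2.57 in WT, and SFP1, which encodes an activator, fell by 0.17 in ime4 and rose by 0.22 in WT. DOT6, the paralogue of TOD6, rose by 1.09 in ime4 and by 0.73 in WT. TOD6, SFP1 and DOT6 had the smallest p of these regulators in the interaction test. Their interactions were 1.03 for TOD6 (adjusted p = 4.20e-06), -0.39 for SFP1 (adjusted p = 0.00151) and 0.35 for DOT6 (adjusted p = 0.00198). That of IFH1 was 0.23 (adjusted p = 0.0421). STB3 rose by 1.26 in ime4 and by 1.22 in WT, and its interaction did not pass, nor did those of SCH9, FHL1 and CRF1.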
